A study of Mus musculus with 4 samples.

Results

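The cells described here are mouse fetal liver progenitors in which Mcpt8 was detected without Cpa3. They were chosen on measured counts, as cells with at least 2 UMIs (unique molecular identifiers) of Mcpt8, under 2 UMIs of Cpa3, and under 3 UMIs of Prg2 and Prg3 added together. The rule found 204 of the 9960 cells. Of these, 58 came from wild-type library F, 53 from wild-type library I, 39 from enhancer-deleted library A and 54 from enhancer-deleted library B. Mcpt8, Cpa3, Prg2 and Prg3 are therefore given only as a description, and their levels were not tested against those of other cells.

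The study used droplet single-cell RNA sequencing (10x Genomics Chromium) of C57Bl/6J fetal liver at embryonic stage E14.5. The sorted population was negative for lineage markers and Sca1 and positive for Kit and CD34. The compared groups were 2 wild-type embryos and 2 embryos lacking a distant upstream enhancer of the Gata2 gene on both alleles (Gata2-77-/-), each sequenced as 1 library. The deposited table held 4980 cells of each genotype and a panel of 3624 genes. All levels below are CPM, the UMIs of a gene summed over the cells of a library and scaled to 1000000 panel UMIs of those cells, and an SD is over the 2 libraries of a genotype.

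Mcpt8 encodes mast cell protease 8, a granule serine protease best known as a marker of mouse basophils. Cpa3, carboxypeptidase A3, marks mast cells and their progenitors and is also made by basophils, and Prg2 and Prg3 encode the major basic proteins of eosinophils. Basophil and mast cell progenitors use the transcription factor GATA2, and basophils carry the high-affinity IgE receptor, whose beta chain is encoded by Ms4a2. Neutrophil and monocyte progenitors make primary granule proteases such as Ctsg, Elane and Prtn3. C/EBPε and GFI1 act in the granulocyte branch, and IRF8 acts in the monocyte branch.

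Mcpt8 lies at chr14:56082166-56085273 (mm10, minus strand, protein coding). The next protein-coding gene toward higher coordinates is Ctsg, which encodes cathepsin G, at chr14:56099881-56102574 on the same strand. A gap of 14607 bases separates them. Of 46 protein-coding genes within 500 kb, Mcpt8 included, 9 were in the panel. The 250 bases before the RefSeq start (GRCm38.p6) are shown for Mcpt8, for its neighbour Ctsg, and for Elane and S100a8, a pair of granulocyte genes whose levels in these cells differed by genotype. The windows are chr14:56085198-56085447 and chr14:56102575-56102824 on the minus strand, and chr10:79886062-79886311 and chr3:90668821-90669070 on the plus strand. Capitals mark the letters GAGGAA (a PU.1 motif) and TGTGGT (a RUNX motif) on either strand, so that TTCCTC and ACCACA are the reverse strand matches.
Mcpt8: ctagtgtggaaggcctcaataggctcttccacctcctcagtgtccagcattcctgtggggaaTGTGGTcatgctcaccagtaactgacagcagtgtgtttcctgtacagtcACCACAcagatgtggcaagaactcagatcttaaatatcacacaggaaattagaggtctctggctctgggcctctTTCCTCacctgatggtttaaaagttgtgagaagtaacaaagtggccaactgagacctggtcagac
Ctsg: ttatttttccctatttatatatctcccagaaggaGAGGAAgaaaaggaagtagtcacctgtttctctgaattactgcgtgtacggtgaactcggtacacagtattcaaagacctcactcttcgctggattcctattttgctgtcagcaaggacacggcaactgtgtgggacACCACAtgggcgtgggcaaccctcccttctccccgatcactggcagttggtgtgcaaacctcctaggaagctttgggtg
Elane: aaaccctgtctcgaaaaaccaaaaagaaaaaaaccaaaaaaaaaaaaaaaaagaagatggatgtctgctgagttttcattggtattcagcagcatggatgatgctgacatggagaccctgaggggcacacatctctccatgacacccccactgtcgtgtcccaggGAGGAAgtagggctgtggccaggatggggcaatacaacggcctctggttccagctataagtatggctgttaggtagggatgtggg
S100a8: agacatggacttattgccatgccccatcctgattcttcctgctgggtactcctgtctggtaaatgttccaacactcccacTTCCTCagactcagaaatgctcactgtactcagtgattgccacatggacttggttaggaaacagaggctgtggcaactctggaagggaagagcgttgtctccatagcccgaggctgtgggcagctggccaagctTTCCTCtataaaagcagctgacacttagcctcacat

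The PU.1 letters occurred in each of the 4 windows and in 23.3% of 32851 promoter windows of this length. The RUNX letters occurred at 188 to 183 bases and at 139 to 134 bases before the Mcpt8 start, and at 79 to 74 bases before the Ctsg start. They occurred in 14% of all windows. The C/EBP letters TTGCNNAA, found in 9.56% of windows, and the GATA letters AGATAA, found in 9.99%, did not occur in these 4 windows. No 2 marked motifs overlapped.

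Most of these cells held few Mcpt8 UMIs. Exactly 2 UMIs were counted in 30 of 58 cells in library F, 28 of 53 in I, 26 of 39 in A and 25 of 54 in B. The highest count was 17 in F, 7 in I, 5 in A and 6 in B. All 6 cells with 8 or more UMIs came from library F. The summed level of Mcpt8 was 219 CPM in F, 134 in I, 243 in A and 302 in B, higher in the enhancer-deleted cells than in the wild-type ones. The cells' median depth was 16294.5 UMIs in F and 21450 in I, and 10270 and 9597.5 in A and B, so that the same UMI limit stood for a lower CPM in the wild-type libraries. These cells held 39.8%, 40.6%, 42.6% and 45.8% of all Mcpt8 UMIs of libraries F, I, A and B, and the rest lay mainly in cells with a single UMI. In the cluster led by globin genes, 0 of 93 cells had a Mcpt8 UMI, which allows a share of up to 3.23% (median 10298 UMIs).

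The share of cells meeting the rule was 1.91% in F (exact 95% binomial interval 1.45 to 2.46) and 2.73% in I (2.06 to 3.56). It was 1.74% in A (1.24 to 2.38) and 1.97% in B (1.48 to 2.56). These intervals cover counting error only. The mean was 2.32% ± 0.586 in wild type and 1.86% ± 0.157 in Gata2-77-/- (SD, n = 2), and libraries F and B overlapped in order. The exact two-sided permutation test gave p = 0.667, where 2 against 2 libraries cannot go below 0.333. After every cell was thinned to 4346 UMIs, with 140 wild-type and 855 enhancer-deleted cells left out as shallower, the order of the means turned. The thinned shares were 0.614% in F, 0.419% in I, 0.544% in A and 0.962% in B, or 0.517% ± 0.138 against 0.753% ± 0.295 (exact permutation p = 0.667). Neither value gave a difference beyond the spread between libraries.

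**Figure D1:**
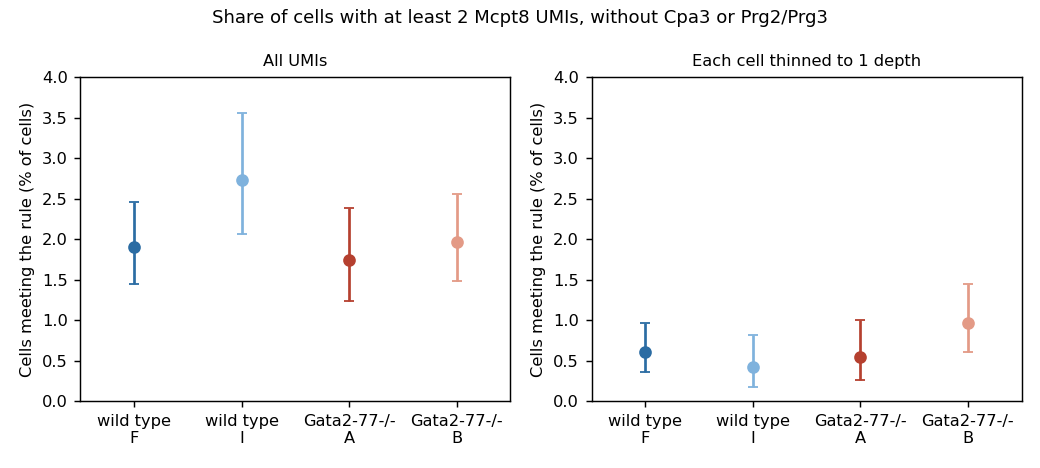
Percent of cells meeting the rule in each library, with all UMIs (left) and after thinning each cell to 4346 UMIs (right); bars are exact 95% binomial intervals. Wild-type library I is highest at 2.73% with all UMIs and lowest at 0.419% after thinning.

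The limits on Cpa3, Prg2 and Prg3 removed cells in the wild type only. Of cells with at least 2 Mcpt8 UMIs, the rule set aside 15 of 73 in F (20.5%) and 10 of 63 in I (15.9%), but 0 of 39 in A and 0 of 54 in B, counts that allow shares of up to 7.69% and 5.56%. Cells with at least 2 UMIs of Cpa3 numbered 219 in F, 189 in I, 1 in A and 1 in B, and cells with at least 3 UMIs of Prg2 and Prg3 numbered 49, 35, 0 and 0. With no UMI of Cpa3 allowed, 51, 44, 38 and 52 cells of F, I, A and B remained.

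The label basophil-like was checked against basophil markers, and most of those measured did not set the cells apart. Of 19 basophil markers listed, 8 were in the panel, 7 of them outside the rule. None of the 7 was above all other cells in all 4 libraries, and 3 were below (Ccl3, Ccl4 and Ifitm1). Of all panel genes, 18.3% were above and 14.3% below. With so few markers, none above is close to that share. A UMI of Ms4a2 was found in 2 of 58 cells in F, 2 of 53 in I, 0 of 39 in A and 0 of 54 in B, which allows a share of up to 7.69% in A and 5.56% in B of cells with a UMI, not of cells expressing the gene. Among all Cpa3-detected cells, 16.4% in F and 10.1% in I had one. Its level was 12.3 CPM in F and 4.39 in I, against 5.42 and 3.14 CPM in the other cells. These levels rest on 12 and 5 UMIs, and 10 of the 12 in F lay in 1 cell, described below. The level in F is thus no trait of the cells as a group. A UMI of Gata2 was found in 11, 8, 3 and 4 cells. Hdc, which encodes the histamine-forming enzyme histidine decarboxylase, was detected in 26, 29, 3 and 5 cells. It was above the other cells in I (61.5 against 43.3 CPM), A (7.45 against 3.41) and B (9.63 against 3.5), but not in F (45 against 48.3). The levels in A and B rest on 3 and 5 UMIs. Wild-type cells of the globin-led cluster held Hdc at 5.34 CPM in F and 5.14 in I. The order in A and B is thus not read as a raised marker. Ccl9, a chemokine gene, was at 242, 212, 184 and 208 CPM in F, I, A and B, against 170, 147, 185 and 184 CPM in all other cells, and was thus higher in each library except A. Since the markers disagree, the cells are called Mcpt8-detected cells without Cpa3 below.

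Irf8 and Cd24a had been given as markers of these cells, but the summed level of both was lower here than in all other cells of every library. Irf8 was at 133, 81.7, 189 and 223 CPM in F, I, A and B, against 154, 143, 257 and 257 CPM in the other cells. Cd24a, a surface glycoprotein gene, was at 71.6, 48.3, 94.3 and 110 CPM, against 101, 82.9, 115 and 139 CPM. The other cells included the cluster led by globin genes, 50 cells in F and 37 in I, where Cd24a stood at 2608 and 2983 CPM. The Cd24a level of the other cells without this cluster was not computed. The lower Cd24a sum in F and I is therefore not read as a trait of the Mcpt8-detected cells. In all Cpa3-detected cells of F and I, Cd24a was below them, at 48.8 and 36.2 CPM. In cells with at least 3 UMIs of Prg2 and Prg3 and under 2 of Cpa3, it was above them, at 78.4 and 66.3 CPM. In cells with 1 Mcpt8 UMI that met the other limits, Cd24a was at 44.5, 37.6, 131 and 121 CPM in F, I, A and B. That was below the Mcpt8-detected cells in F and I, and above them in A and B.

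Several granule protease genes of neutrophil and monocyte progenitors were abundant. Every one of the 204 cells had a UMI of Ctsg, of Prtn3 (proteinase 3) and of Mpo (myeloperoxidase). In wild-type cells of the globin-led cluster, which should lack these genes, a UMI was found in 34% (F) and 16.2% (I) for Ctsg, 66% and 43.2% for Prtn3, and 56% and 35.1% for Mpo. Their median depth was 11111 and 9494 UMIs, and Ctsg was at 44.5 and 46.3 CPM there. Ctsg stood at 2963 CPM in F, 3359 in I, 1951 in A and 1882 in B, against 2176, 1757, 871 and 815 CPM in the other cells. The ratio was 1.36 in F, 1.91 in I, 2.24 in A and 2.31 in B. Prtn3 stood at 5010, 4922, 3932 and 3822 CPM, against 4400, 3935, 2824 and 2866 CPM. Both genes were thus higher than in the other cells of each library. Of 14 genes of the granule list that were measured outside the rule, 6 were above the other cells in all 4 libraries (Ctsg, Prtn3, Srgn, Serpinb1a, Cst7 and Ctsl) and 3 were below (Ctsc, Ctsh and Ctss), where 18.3% and 14.3% of panel genes were so. Of 14 neutrophil markers measured, 3 were above (Prtn3, Ctsg and Ms4a3) and 4 below (S100a8, S100a9, Fcnb and Lyz2). Elane and Mpo were slightly below the other cells in F (3076 against 3136 and 1449 against 1512 CPM) and above them in I, A and B.

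Genes of the other lineages were mostly lower than in the other cells. Of 14 monocyte/macrophage markers measured, 11 were below the other cells in all 4 libraries and 0 above, among them the M-CSF receptor gene Csf1r (14.3, 14.1, 22.3 and 21.2 CPM against 29.9, 31.4, 50.9 and 45.8). Of 15 erythroid markers, 13 were below, and the summed level of the list was 151, 155, 59.6 and 110 CPM against 2759, 4321, 597 and 533 CPM. Of 12 stem and multipotent markers, 9 were below and 0 above. Cebpa, the regulator of early granulocyte and monocyte commitment, was above the other cells at 59.3, 56.3, 62.1 and 71.3 CPM, against 40.6, 39, 33.5 and 37.8 CPM. Among other genes that ranked high by this ratio in every library were Anxa3, Fkbp11, Ruvbl2 and Calr, which encodes the endoplasmic reticulum chaperone calreticulin.

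**Figure D2:**
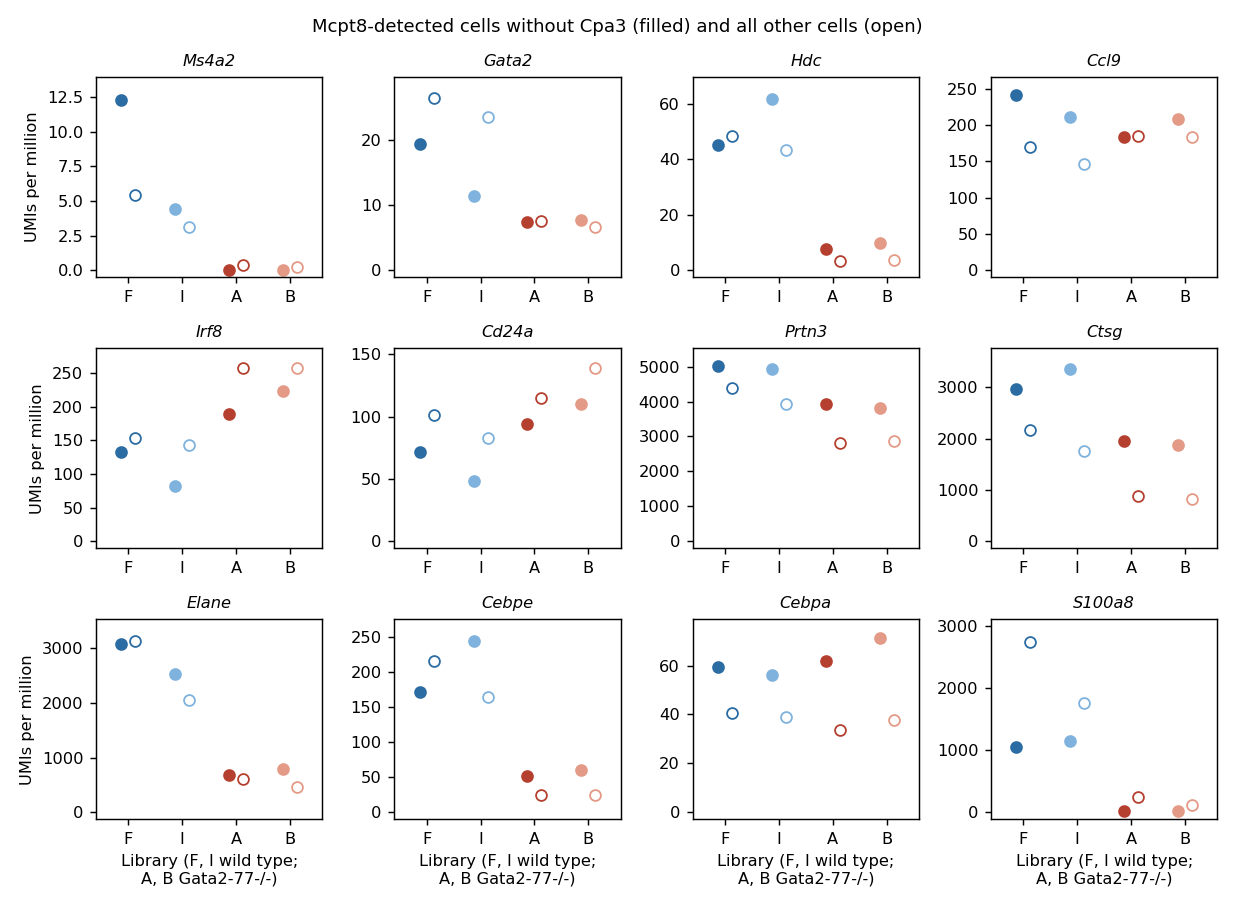
Levels (CPM) of 12 genes in each library, in Mcpt8-detected cells without Cpa3 (filled points) and in all other cells (open points), each panel on its own linear axis from 0. Ctsg, Prtn3 and Cebpa lie above the other cells in all 4 libraries, and Irf8 and Cd24a below. The other cells include the globin-led cluster, which was high in Cd24a in wild type. Ms4a2 is at 0 in libraries A and B.

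Of the 6 cells with 8 or more Mcpt8 UMIs, all from library F, 1 resembled the cells set aside for Cpa3. It held 17 UMIs of Mcpt8, 1 of Cpa3, 10 of Ms4a2, 5 of Gata2, 115 of Ifitm1, 1 of Prtn3 and 0 of Elane. In wild-type cells that failed the Cpa3 limit and held 8 or more Mcpt8 UMIs, 4 in all, Mcpt8 counts were 55, 31, 10 and 11 with 6, 5, 5 and 12 UMIs of Ms4a2, and Prtn3 counts were 1, 4, 3 and 4. The other 5 cells with 8 or more Mcpt8 UMIs that met the rule had no UMI of Ms4a2 and 25 to 148 of Prtn3. Summed over all Cpa3-detected cells with at least 2 Mcpt8 UMIs, Prtn3 was at 2368 CPM in F (14 cells) and 3072 CPM in I (10 cells), and Irf8 at 19.4 and 15.6 CPM. Both were lower than in the Mcpt8-detected cells without Cpa3.

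Levels on either side of the Mcpt8 limit are given as a description. With 2 UMIs of Mcpt8, Ctsg was at 3267, 3128, 1809 and 1651 CPM in F, I, A and B. In cells with 1 UMI that met the other limits, it was at 3165, 2464, 1911 and 1545 CPM. In cells with no Mcpt8 UMI, Ctsg was at 1924 CPM in wild type and 768 CPM in Gata2-77-/-. Irf8 in wild type was at 163, 160, 119, 91 and 89 CPM in cells with 0, 1, 2, 3 and 4 or more Mcpt8 UMIs. In Gata2-77-/- it was at 260, 224, 197, 254 and 173 CPM, with no steady order. S100a8, which encodes a calprotectin subunit, changed sharply at the limit in Gata2-77-/-. It was at 500 and 177 CPM in A and B with 1 UMI, and at 19.2 and 8.25 CPM with 2 UMIs, while F and I held 1665 and 1114 CPM with 1 UMI and 1011 and 1747 CPM with 2.

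The cells did not form a cluster of their own. In a grouping of all cells into 14 clusters they were spread over 13, and the fullest held 38 of them. A pair of clusters, one led by Hsd11b1, Gstm1, Elane, Ms4a3 and Cebpe and one led by Cpa3, Hdc and Apoe, held 25 of 58 cells in F and 29 of 53 in I. The same clusters held 4 of 39 cells in A and 3 of 54 in B. Of all cells they held 25.7% in F, 22.8% in I, 2.28% in A and 1.89% in B, in each library a smaller share than of the Mcpt8-detected cells. A further 3 clusters, led by Ccne1 and Ruvbl2, by Rpgrip1, Bcl2 and Mcpt8, and by Kpna2, Aurka and Irf8, held 11 and 10 cells in F and I, against 24 in A and 40 in B. In percent these were 19 and 18.9 in wild type and 61.5 and 74.1 in Gata2-77-/-, where the clusters held 12.7% and 16.4%, and 28.7% and 33.8%, of all cells. The pair thus held more of the cells than the 3 further clusters in F and I, and fewer in A and B. These sets were not planned, and some of their clusters were led by Mcpt8 or Cpa3, genes of the rule. This order is therefore a description only. Outside the sets, the cluster led by C1galt1c1 and Ly6c2 held 9, 3, 2 and 1 of the cells in F, I, A and B. The part of cluster membership in the genotype differences below was not tested.

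**Figure D3:**
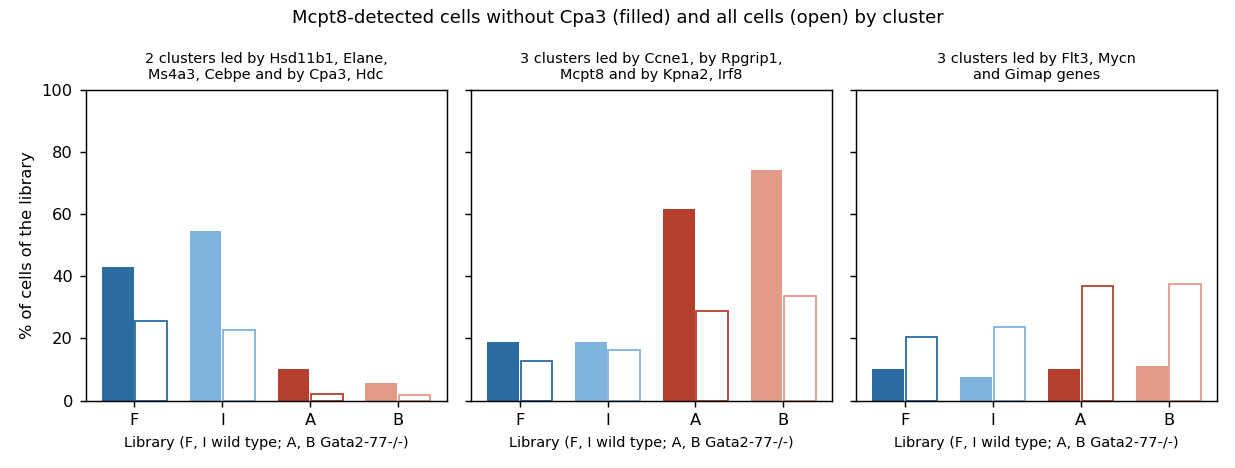
Percent of the Mcpt8-detected cells without Cpa3 (filled bars) and of all cells (open bars) of each library that lay in 3 sets of clusters named by their leading genes. The first set holds 43.1% and 54.7% of the cells in F and I, but 10.3% and 5.56% in A and B. The sets were not planned and are a description only.

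Genotypes were compared on UMIs summed per library over the Mcpt8-detected cells without Cpa3, by edgeR's quasi-likelihood test with Benjamini-Hochberg adjustment over all 3495 genes tested. Summed depth was 977535 UMIs in F, 1137677 in I, 402899 in A and 519134 in B. Of the genes tested, 108 (3.09%) passed an adjusted p of 0.05. Lower in Gata2-77-/- were 90 genes (2.58%), and 18 (0.515%) were higher. The 18 include Mcpt8, which the rule used and which is no result, so that 107 genes and 17 rises lie outside the rule. The median log2 fold change of all genes was 0.00. The libraries of the genotypes did not overlap for 41.6% of all genes, and for each of the 108. The count was 60 without library I and 64 without library B. In bulk sums of this kind, fewer cells making a gene and less RNA of it per cell cannot be told apart.

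Granulocyte genes fell. Of 11 neutrophil genes tested, 9 were lower (Mpo, Elane, Ctsg, Ms4a3, Cebpe, Gfi1, S100a8, S100a9 and Fcnb) and 0 higher, with a median log2 fold change of -1.93. The Fcnb call was lost without library B (edgeR adjusted p = 0.0588). The erythroid globin gene Hbb-bs also fell, from 27.6 and 46.6 to 4.96 and 17.3 CPM (edgeR adjusted p = 0.00479), a call lost without library I (0.498) or A (0.241), and its part in these results was not tested. The other 2 erythroid genes tested, Hbb-bt and Tfrc, did not pass. S100a8 was at 1042 CPM in F, 1142 in I, 14.9 in A and 15.4 in B, the last pair from 6 and 8 UMIs. Its log2 fold change was -6.20 ± 0.22 (SE, edgeR adjusted p = 1.65e-162), a larger difference than the levels in cells with 1 Mcpt8 UMI give. Its partner S100a9 gave 233 and 287 UMIs in F and I but 0 and 3 in A and B. In wild-type cells of the cluster led by globin genes, which should lack them, S100a8 was at 97.9 CPM in F and 249 in I, and S100a9 at 60.5 and 36 CPM. Levels in the Mcpt8-detected cells of F and I were several times higher than this background. Libraries A and B held 3 globin-led cells each, too few for the same measure.

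Elane, which encodes neutrophil elastase, was at 3076 and 2528 CPM in wild type and at 678 and 792 CPM in Gata2-77-/-. It fell by 1.97 ± 0.13 on the log2 scale (SE, edgeR adjusted p = 5.85e-47), and a UMI remained in 87.2% of the cells in A and 79.6% in B, against 89.7% and 90.6% in F and I. Of the globin-led wild-type cells, 36% in F and 29.7% in I had one. Ctsg changed less, from 3161 ± 281 to 1916 ± 48.7 CPM (mean ± SD, n = 2), a log2 fold change of -0.76 ± 0.13 (SE, edgeR adjusted p = 3.66e-07). Prtn3 did not pass the threshold, at 5010 and 4922 CPM against 3932 and 3822 CPM (edgeR adjusted p = 0.0729). Of 12 granule genes tested, 9 were lower and 0 higher, with a median of -0.80. These included Srgn, the granule proteoglycan serglycin (1350 and 1376 against 730 and 753 CPM), and Cd63, a granule membrane tetraspanin (429 and 486 against 189 and 195 CPM). Some of the 9 calls were less stable. Those for Ctsc and Cst7 were lost with the DESeq2 Wald test. With equal numbers of cells per library the Ctsc call was also lost (log2 fold change -1.14, edgeR adjusted p = 0.235). The call for Mpo was lost without library I (edgeR adjusted p = 0.114).

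Other genes with large falls had less familiar roles in these cells. Stfa1 and BC100530, of the stefin A protease inhibitor family, were at 587 and 684 CPM and 148 and 203 CPM in F and I. They were at 171 and 86.7 CPM and 24.8 and 5.78 CPM in A and B. Reads of near-identical stefin A copies can be split by the counting, so these values are uncertain. Gstm1, a glutathione transferase gene, fell from 183 and 207 to 57.1 and 38.5 CPM, and Alas1, the first enzyme of heme synthesis in non-erythroid cells, from 83.9 and 100 to 27.3 and 25 CPM. Nkg7, a granule protein gene of cytotoxic and some myeloid cells, fell from 313 and 300 to 139 and 148 CPM.

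Hdc was the only one of 8 genes of the IgE receptor and mediator list to pass, and it fell. Its levels were 45 and 61.5 CPM in F and I and 7.45 and 9.63 CPM in A and B, which rest on 44, 70, 3 and 5 UMIs. The log2 fold change was -2.65 ± 0.43 (SE, edgeR adjusted p = 1.23e-07). The list's median was -0.01. Fcer1g, the shared signalling chain of Fc receptors, was at 319, 282, 347 and 341 CPM in F, I, A and B. Lta4h, an enzyme of leukotriene synthesis, was at 50.1 and 62.4 against 32.3 and 30.8 CPM (edgeR adjusted p = 0.089). Ms4a2 and Gata2 had too few UMIs to be tested. Gata2 was at 19.4 and 11.4 CPM in wild type and at 7.45 and 7.71 CPM in Gata2-77-/-, which rest on 19, 13, 3 and 4 UMIs.

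Among 18 transcription regulators tested, 2 were lower (Cebpe and Gfi1), 2 higher (Irf8 and Lmo2) and the median was 0.04. Cebpe was at 172 CPM in F and 244 in I, and at 52.1 in A and 59.7 in B, a log2 fold change of -1.93 ± 0.21 (SE, edgeR adjusted p = 5.55e-17). Gfi1 gave 16, 35, 0 and 4 UMIs in F, I, A and B, and its call was lost without library A (edgeR adjusted p = 0.233). Irf8 was at 133 and 81.7 CPM in F and I and at 189 and 223 CPM in A and B. Its log2 fold change was 0.92 ± 0.18 (SE, edgeR adjusted p = 2.86e-05), lost without library I (adjusted p = 0.229). The Lmo2 call was lost without library I (adjusted p = 0.546) or B (0.0752). Cebpa and Spi1, which encodes PU.1, did not pass, with edgeR adjusted p of 0.865 and 0.908. Spi1 was at 377 and 354 CPM in wild type and 343 and 443 CPM in Gata2-77-/-.

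The other rises were modest. Cd24a was at 71.6 and 48.3 CPM in wild type and 94.3 and 110 CPM in Gata2-77-/- (edgeR adjusted p = 0.0327), a call lost without library I (0.735), A (0.0597) or B (0.383). Of 6 stem and multipotent genes tested, 2 were higher: Cd34, a gene of the sorting marker (174 and 197 against 263 and 318 CPM), and Ifitm3, an interferon-induced membrane protein gene (254 and 106 against 318 and 351 CPM). The Cd34 call was lost without library F, I or B (adjusted p = 0.287, 0.0508 and 0.152), and that of Ifitm3 without library I (0.711). Fabp5, a fatty acid binding protein gene, rose from 372 and 360 to 581 and 692 CPM and passed without each library in turn. Cox4i2, an isoform of a cytochrome oxidase subunit, went from 47.1 and 20.2 to 64.5 and 100 CPM, and Prdx4, a peroxiredoxin gene, from 52.2 and 27.2 to 59.6 and 125 CPM. Both of these calls were lost without library I (adjusted p = 0.323 and 0.233) or B (0.284 and 0.647).

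Of 8 monocyte genes tested, 2 were lower (Ly6c2 and F13a1), 1 was higher (Irf8) and the median was 0.34. Ly6c2, a surface antigen of classical monocytes, was at 181 and 84.4 CPM in wild type and 37.2 and 25 CPM in Gata2-77-/- (log2 fold change -2.14 ± 0.26 SE, edgeR adjusted p = 2.37e-14). The F13a1 call was lost without library F (adjusted p = 0.584) or B (0.494). Csf1r did not pass, with an adjusted p of 0.708. Of 8 cytokine receptor genes, Ifngr1 alone was lower, a call lost without library F, I or B (adjusted p = 0.0542, 0.228 and 0.244). None of 18 S phase and 18 G2/M phase genes passed, with medians of 0.04 and 0.12.

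**Figure D4:**
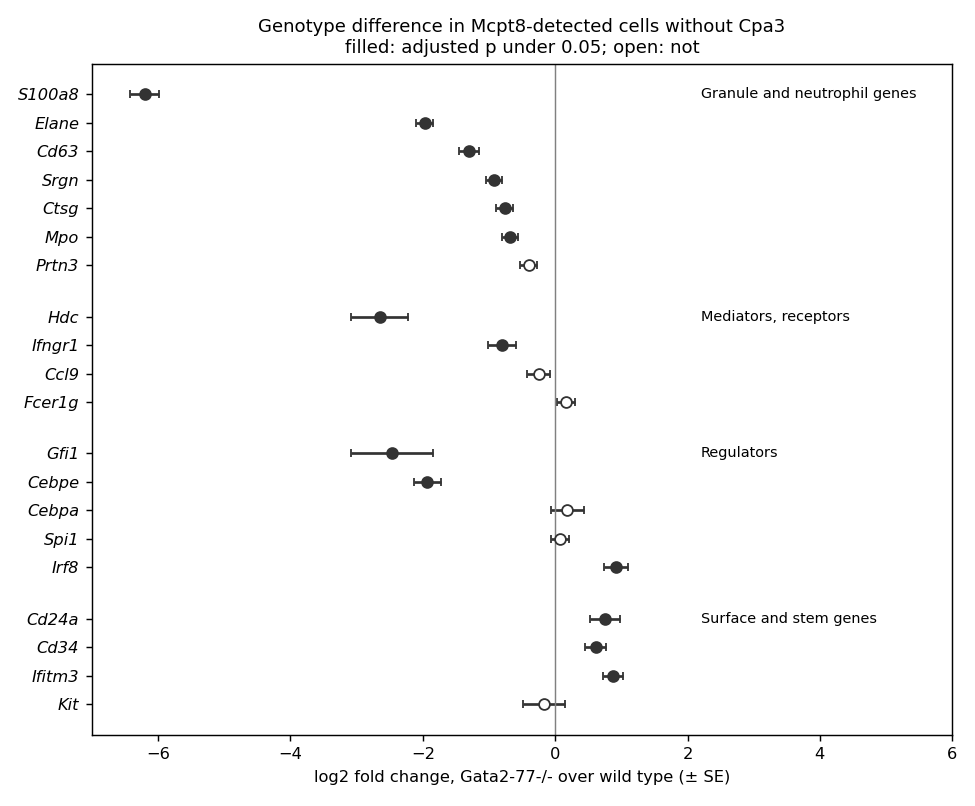
Fitted log2 fold change (Gata2-77-/- over wild type, ± SE) of named genes in Mcpt8-detected cells without Cpa3; filled points passed an adjusted p of 0.05. Of the genes drawn, S100a8 lies farthest left at -6.20, Elane at -1.97 and Ctsg at -0.76, while Irf8 lies right of zero at 0.92.

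Whether these genotype differences were peculiar to the Mcpt8-detected cells was tested as the interaction of membership and genotype. In this edgeR test 0 of 3619 genes passed (0%), 190 had an unadjusted p under 0.05, and the smallest adjusted p was 0.0535. Of the 107 called genes outside the rule, 78 also passed in all other cells with the same sign. The share of all genes that passed in the other cells was not counted, so no excess is read from this overlap. For Ctsg the difference was -0.76 ± 0.13 in these cells and -1.27 ± 0.14 in the other cells (log2, SE), and the interaction had an adjusted p of 0.399. For Irf8 it was 0.92 ± 0.18 and 0.74 ± 0.08, with an interaction adjusted p of 0.963. For S100a8 it was -6.20 ± 0.22 and -3.70 ± 0.46, with an interaction adjusted p of 0.351. Alternatives called from 0 to 12 genes, the most when library B or I was left out.

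To compare detection of 11 regulators at 1 depth, cells were thinned to 4346 UMIs, which kept 58, 53, 38 and 53 cells. Cebpe was detected in 37.9% and 47.2% of cells in F and I, and in 26.3% and 22.6% in A and B. It was detected in 2.35% of wild-type cells of the globin-led cluster (median 10660 UMIs before thinning). Gfi1 was detected in 13.8% and 11.3% of wild-type cells and in 0 of 38 and 0 of 53 enhancer-deleted cells, which allows up to 7.89% and 5.66%, and Gata2 in 12.1%, 5.66%, 0% and 3.77%. For these 3 genes and Gata1 the libraries of the genotypes did not overlap. The exact permutation p was 0.333 each, the smallest that 2 against 2 libraries allow (0.916 after adjustment over the 11 regulators). Gata1 was detected in only 1.72% and 1.89% of wild-type cells. The share of all panel genes apart at this depth was not counted. On summed levels 41.6% of genes tested did not overlap, so the separation is not read as a result about these regulators. The Irf8 share overlapped, at 39.7% in F, 24.5% in I, 39.5% in A and 47.2% in B (exact permutation p = 0.667). Thinning to 9777 UMIs kept 52, 51, 22 and 25 cells of F, I, A and B, so that mostly enhancer-deleted cells were left out as shallower. The Gata2 and Gata1 shares then overlapped. Those of Irf8 did not, at 55.8% and 43.1% in wild type and 72.7% and 68% in Gata2-77-/-. At that depth Cebpa was higher in Gata2-77-/- (59.1% and 52%) than in wild type (38.5% and 33.3%), the reverse of its order without thinning. With at least 3 Mcpt8 UMIs the shares of Cebpe, Gata2 and Gata1 overlapped. Without thinning, Irf8 was detected in 62.1% and 50.9% of wild-type cells and 74.4% and 72.2% of enhancer-deleted ones.

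Irf8 and Cebpe were detected together in some cells of every library. Without thinning, both were detected in 21 of 58 cells in F, 18 of 53 in I, 10 of 39 in A and 12 of 54 in B. Irf8 without Cebpe was seen in 15, 9, 19 and 27 cells, or 25.9% and 17% in wild type and 48.7% and 50% in Gata2-77-/-. Cebpe without Irf8 was seen in 13, 20, 4 and 5 cells. Thus Irf8 without Cebpe was the most frequent combination in both enhancer-deleted libraries and in neither wild-type one. The separate shares in F, I, A and B were 62.1%, 50.9%, 74.4% and 72.2% for Irf8, and 58.6%, 71.7%, 35.9% and 31.5% for Cebpe. No counts expected from these shares were set beside the combinations. Neither a link between the genes nor a genotype difference beyond the separate shares is read from them. The deeper wild-type libraries detect any gene in more cells, and the part of depth in these combinations was not tested.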

How the data were processed

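Per the labels, UMI counts came from 10x Genomics Chromium libraries, and the submitters' processing notes name Cell Ranger 2.0.2, Seurat 2.3.4 and mm10. The deposited table held whole-number UMI counts with no normalization, 4980 cells per genotype and 3624 genes. How the authors chose cells and genes is not given in the sources used here, and only panel genes can be described. Library letters, 4 in all, were tied to a genotype but not to a sample number. No cell barcodes were used here, so shared barcodes were not counted.

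Libraries F, I, A and B held 3042, 1938, 2235 and 2745 cells, and median depth per cell was 12826.5, 17437.5, 7492 and 7087 UMIs. UMIs were summed per library over the cells meeting the rule, filtered with filterByExpr, scaled by TMM and tested by the two-sided quasi-likelihood test of edgeR 4.0.16 under R 4.3.3 at an adjusted p of 0.05. The interaction fit held library as a factor. The replicate was the embryo's library, 2 per genotype. Shares were compared by exact permutation over libraries, and thinning drew each cell's UMIs without replacement to the 10th percentile of depth (4346). Cells were clustered with scanpy 1.11.5 (14 Leiden clusters). No doublet caller was run, and doublets were treated by an alternative without cells above the 95th percentile of UMIs. Both fits were tested on simulated counts, drawn with the spread that each fit had estimated, the same for all genes. Such counts meet the model of the fits. They cannot show how often real libraries, 2 per genotype, give false calls.

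The cells and gene lists were chosen with earlier results of these data known. Genes named were the 10 largest rises and falls (both libraries apart, at least 50 CPM), up to 3 genes of each list, and the 15 genes highest against the other cells. Ms4a2, Gata1, Spi1, Fcer1g, Prtn3, Mpo, Ms4a3, Fcnb and Lmo2 were named after their values were seen. Alternatives changed the scaling, filter, test, UMI limits, depth and libraries, and one, cells with 2 to 7 Mcpt8 UMIs, was chosen after seeing the data. Gene positions came from GENCODE M21, where 3522 of 3624 symbols matched 1 gene, and promoter windows from RefSeq (GRCm38.p6).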

Additional observations from a re-analysis of the deposited data

How the results depend on the processing

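The share of cells meeting the rule differed by -0.465 points (Gata2-77-/- minus wild type), and by 0.236 points after thinning. Leaving out each library in turn gave differences from -0.879 to -0.0506 points. The count of called genes in these cells (108) was 109 with DESeq2 size factors, 79 with library totals 99 with 2 to 7 Mcpt8 UMIs, and 99 with a term for Xist, which was detected in I and B but not in the cells of F and A. It fell to 37 with at least 3 and 1 with at least 5 Mcpt8 UMIs, and to 11 when cells were chosen after thinning, settings that leave fewer cells. It was 59 without the deepest cells, 68 with equal cell numbers and 34 with the DESeq2 Wald test, where the cause was not tested. Without each library it ranged from 60 to 144. Of 44 called genes followed, 6 passed in every alternative that could test them (S100a8, S100a9, BC100530, Hdc, Ly6c2 and Elane), and 19 passed without each library in turn. With at least 5 Mcpt8 UMIs, the log2 fold changes of Irf8 (-0.18), S100a10 (-0.32) and Ifngr1 (0.56) turned sign. Chosen after thinning, the calls for Ctsg (log2 fold change -0.54, adjusted p = 0.485), Cebpe (-1.46, 0.206) and Irf8 (0.99, 0.578) were lost. The DESeq2 Wald test called 2 genes higher, S100a10 (adjusted p = 0.0404) and Fabp5 (0.00237), and 32 lower. Calls it lost included Irf8 (0.119), Cox4i2 (0.284), Prdx4 (0.32), Cd34 (0.322), Cd24a and Ifitm3 among the rises. Among the falls it lost Gfi1 (0.574) and Fcnb (0.0949), with others.

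The interaction called 0 genes, and 1 with library totals, 2 with at least 3 and 1 with at least 5 Mcpt8 UMIs, 1 with no Cpa3 UMI, 3 after thinning and 4 without the deepest cells. Without each library it called 1 to 12. The regulators whose libraries did not overlap numbered 4 of 11, 10 without thinning, and from 5 to 8 without each library. With a library left out, 1 is set against 2, and libraries then lie apart by chance more often. The counts from 5 to 8 are therefore not read as stability. Without thinning, the cells' median depth was 16294.5 and 21450 UMIs in F and I, but 10270 and 9597.5 in A and B. The count of 10 is thus not read as a result about these regulators. The share of all panel genes apart was not counted in these settings. No paired analysis was possible because the library letters carry no replicate numbers. The number of cells per library and the 2 libraries per genotype limit precision.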
